A study of Bos taurus with 12 samples.

Results

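The DLK1-DIO3 locus is an imprinted stretch of bovine chromosome 21 that holds a large group of miRNA genes. Its miRNAs were chosen by number: every name in the deposited miRNA table that carries 1 of 39 number tokens of the locus, from miR-127 to miR-889, with all letter suffixes and both arms. This gave 92 of the 1330 names in the table, and 38 of the 39 tokens had a name. The libraries came from intramuscular preadipocytes of newborn Qinchuan cattle (Bos taurus), isolated from the longissimus dorsi muscle and grown to near confluence in complete medium with serum. The 0 d group was taken before induction. The 3 d, 6 d and 9 d groups had received DEX, IBMX and insulin for 2 days and complete medium with insulin from then on. Each day has 3 libraries, 12 in all. The study calls the 3 samples of a day biological replicates, from 1 batch of cells over all days, but neither it nor the labels say whether they are separate cultures or animals, so p-values measure only the spread between these samples, which may be technical. The labels and the methods of the study differ in the doses of DEX and insulin, and no dose is given here.

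In the imprinted domain, DLK1, RTL1 and DIO3 are expressed from the paternal chromosome, and the noncoding MEG3 transcripts and the miRNAs from the maternal chromosome. The miRNAs on the MEG3 side include the group that lies antisense to RTL1 (miR-431, miR-433, miR-127, miR-432 and miR-136), and those on the DIO3 side form the long cluster from miR-379 to miR-656. The locus is known for growth before birth, for muscle, in which MEF2A switches on the DIO3-side cluster, and for fat, since DLK1 keeps preadipocytes from differentiating.

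The mature sequences of the members on which the results turn are given as the deposited table lists them, written as DNA from 5′ to 3′, with the seed (bases 2 to 8) in capitals. The seed is the stretch that pairs with target mRNAs. The 3 sequences with a shared seed are shown because all of them were higher at 9 d and because their reads are hard to tell apart. MiR-379-3p differs from each of the other sequences at 1 of 21 bases, and those differ from each other at 2. The authors allowed 1 mismatch.
miR-379-3p: tATGTAACatggtccactaac
miR-411a-3p: tATGTAACacggtccactaac
miR-411b-3p: tATGTAACatggtccactaat
The next set is shown because it holds the other members whose rise or fall at 9 d vs. 0 d was kept under every alternative, apart from a rare variant of miR-433-3p. MiR-299 shares its seed with the rarer mir-299-2-p5, which it matches over 22 bases, miR-299-3p with miR-299-2, and miR-411b with miR-412-5p. The seeds of the others occur in no other name of the table.
miR-381: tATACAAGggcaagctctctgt
miR-299: tGGTTTACcgtcccacatacat
miR-299-3p: tATGTGGGacggtaaaccgctt
miR-411b: tGGTCGACcataaaacgtacgt
miR-655: aTAATACAtggttaacctctct
miR-134: tGTGTGACtggttgaccagagtgg
mir-134-p3: tCTGGGCCacctagtcaccaac
miR-431: tGTCTTGCaggccgtcatgca
The last sequence is that of miR-127, the most abundant member, which is shown for its share of the libraries.
miR-127: tCGGATCCgtctgagcttggct
Over all members there were 80 seeds, of which 10 were shared by 22 members.

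All members but 1 were placed on the chromosome, the exception being a rare variant of miR-433-3p, which is counted on the MEG3 side by its number. They lay within 188.7 kb, on 52 hairpins in 2 blocks. The MEG3 side, from miR-493 to miR-370, held 8 hairpins in 41.6 kb and 18 members. The DIO3 side, from miR-379 to miR-656, held 44 hairpins in 42.9 kb and 74 members, and 104.2 kb separated the blocks. Of the 92 members, 42 were 5p and 50 were 3p arms, and 51 carried a bovine and 41 another species' name. The values are estimated counts, in which reads shared between miRNAs were split evenly. Over the 12 libraries 51 members held at least 1000 counts and 20 fewer than 100. A total of 61 were above 0 in every library, and 87 reached the 10 summed counts needed for a test, as did 1091 of all names. MiR-127 alone held 56.9% of the members' counts and was rank 4 in the table by the authors' mean normalized signal. MiR-409-3p followed with 9.02% of the members' counts, miR-493-5p with 5.06%, miR-380-3p with 3.02% and miR-433 with 2.94%. MiR-409a, miR-494, miR-154b, miR-410 and miR-432 made up the rest of the 10 most abundant, with 1.83% to 2.8% each.

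The library of 0 d replicate 3 stood apart from the others. Over the 383 names with at least 1000 counts, its Pearson r with the other 0 d libraries was 0.942 and 0.936 on the log2 scale, against 0.994 between those. Over the 51 abundant members the same r were 0.955 and 0.948 against 0.991. All other pairs of the same day lay between 0.980 and 0.998 over the 383 names. In that library 67 members were above 0, against 77 and 76 in the other 0 d libraries. MiR-380-3p was 1.63 log2 lower there than the mean of the others, miR-494 1.35 lower and miR-410 1.32 lower, while miR-665 and miR-370 were 1.01 log2 higher. Of the 51 abundant members, 9 lay more than 1 log2 lower in it and 3 more than 1 log2 higher, as did 62 and 52 of the 332 other abundant names. The muscle miRNA miR-206 stood at 32380 CPM (counts scaled to a common library total) in it, against 16480 and 11370. The blood miRNAs miR-451, miR-223 and miR-150 were at 7.74, 4.17 and 7.15 CPM. All 3 were at 0 in the other libraries, except for 6 d replicate 3, which held miR-150 at 65.1, miR-451 at 7.99 and miR-223 at 2.47, and 9 d replicate 2, which held miR-150 at 1.93. What part such differences have in the results was not tested, and the counts of calls below are given with and without 0 d replicate 3.

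Members of the locus took up 5.55%, 6.2% and 4.66% of the counts of the 0 d libraries and a larger share of every later library. The shares were 7.3%, 7.26% and 7.56% at 3 d, 6.44%, 6.57% and 7.4% at 6 d, then 6.85%, 6.3% and 7.06% at 9 d. The means were 5.47% (SD 0.773) at 0 d, 7.37% (SD 0.163) at 3 d, 6.8% (SD 0.521) at 6 d and 6.74% (SD 0.392) at 9 d. Without 0 d replicate 3 the 0 d mean was 5.88% (SD 0.46, n = 2), still below each later mean, although the 0 d library at 6.2% lay only just under the 9 d library at 6.3%. MiR-127 accounted for 2.95% of the counts at 0 d (SD 0.276) and 4.34% at 3 d (SD 0.344). The DIO3-side members together held 1.88%, 2.12% and 1.14% at 0 d, with means of 1.71% (SD 0.511) at 0 d, 2.22% (SD 0.214) at 3 d, 2.31% (SD 0.0321) at 6 d and 1.98% (SD 0.102) at 9 d. Their 0 d mean without 0 d replicate 3 was 2% (SD 0.17, n = 2), as high as at 9 d. The remaining MEG3-side members had day means between 0.707% and 0.827%, and lay between 0.685% and 0.894% in single libraries. Their 9 d libraries, at 0.712%, 0.685% and 0.723%, lay below those of all other days. In bulk libraries such as these, fewer cells that make a miRNA and less of that miRNA per cell cannot be told apart.

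**Figure D1:**
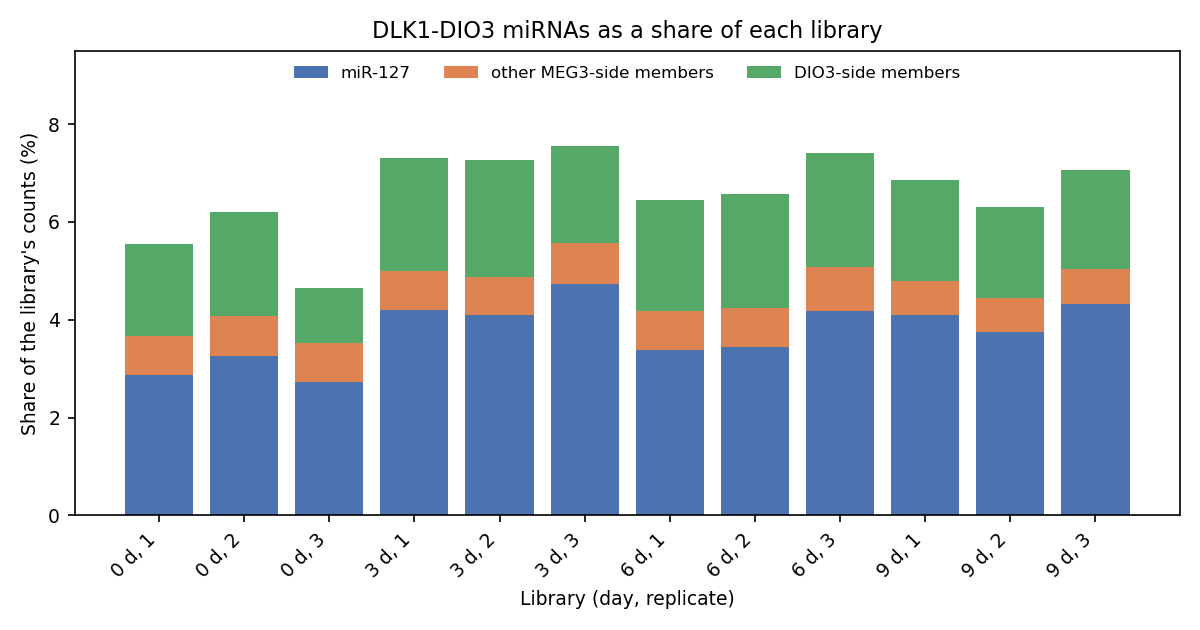
Stacked bars give the share of each library's counts (%) held by miR-127, by the other MEG3-side members and by the DIO3-side members, for 3 replicates of each day. The total is 4.66% to 6.2% at 0 d and 6.3% to 7.56% on the later days.

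Values of single miRNAs are CPM after TMM, a scaling that corrects for differences in library composition. MiR-127 stood at 25350, 27790 and 30150 in the 0 d libraries, at 40490, 38180 and 46860 at 3 d, at 32520, 33280 and 39890 at 6 d and at 46920, 43730 and 48880 at 9 d. Every later library lay above every 0 d library. The log2 difference was 0.59 (SE 0.152) at 3 d, 0.34 (SE 0.151) at 6 d and 0.74 (SE 0.152) at 9 d, with adjusted p of 0.0237, 0.152 and 0.00267 in edgeR's quasi-likelihood test with Benjamini–Hochberg adjustment over all names tested. All 3 differences stayed under the fold required of a call, which was set at an absolute log2 fold change over 1 with an adjusted p under 0.05.

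At 3 d vs. 0 d, just after the induction cocktail, miR-655, both arms of miR-134 and miR-495 rose and the rare mir-136-p5 fell. These were 5 of the 87 members tested (5.75%), 4 higher and 1 lower, against 6.32% of all 1091 names (3.94% higher and 2.38% lower), so the share of calls was near that of the whole table. The median member lay above 0, to a degree that varied with the processing. The median log2 difference of members was 0.38 (66 of 87 above 0), against 0.02 for all names, and 0.31 against 0 when names at 0 on a whole day were set to a bound of 5 counts in each library. It was 0.30 without 0 d replicate 3 (57 of 87 above 0), 0.24 with DESeq2 (63 of 87) and 0.22 with names placed on a hairpin only (58 of 86). In the same settings the median of all names was 0.02, 0 and 0.06. Among names with at least 1000 counts the medians were 0.42 for the 51 members and 0.1 for the 332 others, but 3 members (5.88%) were called against 41 others (12.3%). All comparisons with 0 d share the same 0 d libraries, so they are not independent of each other.

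MiR-134, the 5p arm, stood at 11.8, 7.43 and 16.1 CPM at 0 d and at 42.6, 32.2 and 38.0 at 3 d. The days did not overlap, and its log2 rise of 1.69 (SE 0.309, all 3 libraries higher, adjusted p = 0.00307 in edgeR's quasi-likelihood test) was the only call at 3 d kept under every alternative. MiR-655 went from 106, 89.5 and 45.9 to 196, 180 and 225 (log2 1.31, SE 0.274, adjusted p = 0.00787 in the same edgeR test). Its 3 d libraries also all lay above those of 0 d, but without 3 d replicate 3 it was no longer called at log2 1.15, nor in a fit of the 6 libraries compared. Mir-134-p3, the other arm, held counts of 0, 6 and 5 at 0 d and 31, 43 and 34 at 3 d. Its log2 rise of 2.64 (SE 0.645, adjusted p = 0.0193 in edgeR's test) rests on 11 counts at 0 d and was lost without any 1 of the 3 d libraries. MiR-495 passed the fold limit narrowly (log2 1.02, SE 0.255, adjusted p = 0.0214 in edgeR's test; 70.1, 55.9 and 50.6 against 138, 125 and 95.2), and the call was lost without 0 d replicate 3 at 0.92, without 0 d replicate 2 (1.01), 3 d replicate 1 (0.88) or 2 (0.96), or 6 d replicate 1 or 3 (both 0.99), and in 11 of 19 alternatives in all. Mir-136-p5 held 7, 5 and 8 counts at 0 d and 0 in each 3 d library, and no fold is given for it (adjusted p = 0.0498 in edgeR's test, lost in 13 of 18 alternatives). The deposited table lists 7 whole values from 1 to 4 among names with whole values throughout and 596 values of 5, so a 0 may stand for a few reads. Among members with at least 100 counts in the 6 libraries compared, miR-665 showed the largest fall, not called, from 381, 430 and 817 to 299, 317 and 300 (log2 -0.83, SE 0.256). Its highest 0 d value, 817, was that of 0 d replicate 3. The fall was called without 0 d replicate 1 and with names placed on a hairpin only.

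Without 0 d replicate 3 the calls at 3 d vs. 0 d also numbered 5, all higher, beside 62 of all 1082 names. MiR-495 and mir-136-p5 were replaced by miR-329a and miR-329b-3p. Those 2 names have identical sequences and share their reads evenly. The calls fell to 2 without any 1 of the 3 d libraries, and to 1 when only the 6 libraries compared were fitted.

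At 6 d vs. 0 d, with insulin alone in the medium, 7 members were called and all were higher. They were both arms of miR-134, miR-655, miR-299, miR-379-3p and both arms of miR-411b. Their share of the members tested was 8.05%, below the 11.2% of all names (6.97% higher and 4.22% lower), while the median log2 difference of members was 0.54 against 0.23 (0.45 against 0 with the bound). Of the members 69 of 87 lay above 0, and among names with at least 1000 counts the medians were 0.49 for members and 0.12 for others, but 4 of 51 members (7.84%) were called against 74 of 332 others (22.3%). The median of members was 0.50 without 0 d replicate 3, 0.40 with DESeq2 and 0.34 with names placed on a hairpin only. In the same settings the median of all names was 0.27, 0.09 and 0.18. DESeq2 called 5 members, all among the 7, and at 3 d also 5, of which 4 were shared. Of all 1091 names it called 168 at 6 d and 84 at 3 d.

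MiR-299 stood at 414, 393 and 503 CPM at 0 d and at 1016, 956 and 992 at 6 d. All 6 d libraries lay about as high as those of 9 d, and the log2 rise was 1.18 (SE 0.185, adjusted p = 0.000518 in edgeR's quasi-likelihood test), a call lost with names placed on a hairpin only (0.95). MiR-379-3p went from 144, 137 and 95.3 to 271, 257 and 273 (log2 1.09, SE 0.188, adjusted p = 0.00108 in edgeR's test), and without 0 d replicate 3, its lowest library, the difference was 0.92 and no longer a call. The call was also lost with DESeq2 (0.94), with at least 120 counts (0.93), with limma on the normalized signal (0.96) and with names placed on a hairpin only (0.87). MiR-655 reached 218, 212 and 162 (log2 1.29, SE 0.273, adjusted p = 0.00503 in edgeR's test), with all 3 libraries above 0 d. MiR-134 reached 22.8, 27.8 and 29.3 (log2 1.2, SE 0.306, adjusted p = 0.0157 in edgeR's test), lower than at 3 d but still above every 0 d library, and it was not called without 6 d replicate 2 at log2 1.17 or with names placed on a hairpin only (0.98). Mir-134-p3 went from counts of 0, 6 and 5 to 31, 58 and 44 (log2 2.39, SE 0.641, adjusted p = 0.0206 in edgeR's test), with the same loss at 2.28. MiR-411b-3p was at 2.11, 2.12 and 0 at 0 d and at 11.6, 8.91 and 12.8 at 6 d (log2 2.85, SE 0.642, adjusted p = 0.00752 in edgeR's test). Its 5p arm, miR-411b, at 5.91, 9.55 and 7.15 against 16.2, 15.9 and 15.4, was called at log2 1.06 (SE 0.314, adjusted p = 0.0323 in edgeR's test), and the call was lost without any 1 of the 6 d libraries (1.05, 1.06 and 1.1) or 0 d replicate 1 (0.91), and in 10 of 19 alternatives in all, DESeq2, limma and both other filters among them.

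Without 0 d replicate 3 the calls at 6 d vs. 0 d numbered 8, beside 111 of all 1082 names. MiR-329a and miR-329b-3p were gained and miR-379-3p was lost. The count ranged from 4 without 6 d replicate 2 to 13 without 0 d replicate 2, and it was 2 in a fit of the 6 libraries compared, which kept only miR-299 and miR-379-3p.

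At 9 d vs. 0 d, the end of the series, 16 members were called, 13 higher and 3 lower. Their share was 18.4%, near the 19.1% of all names (9.99% higher and 9.07% lower), so the number of calls does not set the members apart. The members that rose were miR-381, both arms of miR-299, of miR-134, of miR-411a and of miR-411b, miR-379-3p, miR-655, miR-494 and miR-127-5p. The members that fell were miR-431, miR-541-5p and a rare variant of miR-433-3p. The median log2 difference was 0.30 for members and 0 for all names (0.17 against 0 with the bound), and 53 of 87 members lay above 0. Among names with at least 1000 counts, members had a median of 0.53 against 0.1 for others, but 12 of 51 members (23.5%) were called against 116 of 332 others (34.9%). DESeq2 called 16 members, of which 15 were the same, and 242 of all 1091 names.

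MiR-381 had the smallest adjusted p of the members. It stood at 369, 382 and 449 CPM at 0 d, at 567, 593 and 580 at 3 d, at 660, 673 and 730 at 6 d and at 995, 983 and 1175 at 9 d. No day overlapped with the next, and the log2 rise at 9 d was 1.39 (SE 0.160, adjusted p = 2.43e-05 in edgeR's quasi-likelihood test). It stayed between 1.19 and 1.48 under all alternatives. The minor 5p arm of the same hairpin was not called (log2 0.58, SE 0.529).

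MiR-299 reached 890, 1091 and 1124 at 9 d (log2 1.25, SE 0.185, adjusted p = 0.000265 in edgeR's test). MiR-299-3p stood at 106, 160 and 116 at 0 d and at 332, 272 and 319 at 9 d (log2 1.27, SE 0.195, adjusted p = 0.000331 in the same test), so both arms of this hairpin rose to a similar degree in all 3 libraries. MiR-379-3p reached 290, 266 and 313 (log2 1.2, SE 0.189, adjusted p = 0.000409 in edgeR's test). The 5p arm, miR-379, was at 185, 180 and 368 at 0 d and 331, 314 and 475 at 9 d. With 0 d replicate 3 high, its difference of 0.61 was not called, and without that library it was called at 1.03. MiR-655 reached 174, 204 and 247 (log2 1.37, SE 0.274, adjusted p = 0.00234 in edgeR's test), a level it had already at 3 d.

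MiR-134 was at 24.4, 28.0 and 34.2 at 9 d (log2 1.31, SE 0.308, adjusted p = 0.00637 in edgeR's test), with a mean below that of 3 d, though the libraries overlapped, and above every 0 d library. Mir-134-p3 held counts of 43, 36 and 50 (log2 2.92, SE 0.645, adjusted p = 0.00437 in edgeR's test). MiR-411b rose from 5.91, 9.55 and 7.15 to 22.9, 25.8 and 29.8 (log2 1.78, SE 0.316, adjusted p = 0.00107 in edgeR's test). All of these calls were kept under every alternative, whereas that of miR-411b-3p, at 6.67, 5.15 and 8.21 (log2 2.12, SE 0.644, adjusted p = 0.0285 in edgeR's test), was lost without 9 d replicate 1 (2.13) or 3 (1.95) and in a fit of the 6 libraries compared. MiR-127-5p, the minor arm of the most abundant member, rose from 69.7, 67.6 and 50.0 to 124, 135 and 159 (log2 1.15, SE 0.204, adjusted p = 0.00106 in edgeR's test), and its call was kept without any 1 library but not when only names placed on a hairpin were fitted (0.96).

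The remaining calls of a rise were lost without 0 d replicate 3. MiR-494 stood at 938, 1147 and 407 at 0 d and at 2056, 1985 and 2170 at 9 d (log2 1.32, SE 0.303, adjusted p = 0.00565 in edgeR's test). Without that library the difference was 0.99. MiR-411a, at 124, 156 and 61.9 against 284, 252 and 298, was called at 1.28 (SE 0.292, adjusted p = 0.00544 in edgeR's test) and stood at 0.99 without it. MiR-411a-3p, at 177, 210 and 129 against 328, 323 and 403, was called at 1.03 (SE 0.199, adjusted p = 0.00194 in edgeR's test) and stood at 0.86 without it and at 0.92, also not called, without 9 d replicate 3. That call was lost in 7 of 19 alternatives, DESeq2 (0.91), limma and both other filters among them. In all 3 cases every 9 d library still lay above every 0 d library. MiR-380-3p was likewise low in 0 d replicate 3 (1513, 1520 and 490 against 2564, 1985 and 2006) and was not called at log2 0.90 (SE 0.329). Its rise was called with a replicate block and without 0 d replicate 2. At 6 d vs. 0 d it was called without 0 d replicate 1 or 2, and with the block, which also added miR-494.

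MiR-431, the 5p arm from the group antisense to RTL1, was the member with the clearest fall. It stood at 44.3, 42.4 and 44.1 CPM at 0 d, at 30.1, 31.7 and 33.3 at 3 d, at 29.4, 34.8 and 23.6 at 6 d and at 15.4, 12.9 and 16.2 at 9 d. The 9 d libraries lay below all others, with a log2 fall of -1.56 (SE 0.241, adjusted p = 0.000368 in edgeR's test) that was kept under every alternative. Its 3p arm, miR-431-3p, was not called (182, 258 and 85.2 against 245, 164 and 131, log2 0.03, SE 0.333). MiR-541-5p was called lower at log2 -1.05 (SE 0.297, adjusted p = 0.0206 in edgeR's test), but its days overlapped: 200, 273 and 96.5 at 0 d against 100, 97.9 and 78.3 at 9 d. The call was lost without 0 d replicate 2, at -0.65, without 0 d replicate 1 (-1.01) or 9 d replicate 3 (-0.94), with a replicate block (-0.97) and in a fit of the 6 libraries compared. The variant of miR-433-3p held 10, 10 and 8 counts at 0 d and 0 in each 9 d library (adjusted p = 0.0159 in edgeR's test), and no fold is given for it.

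Without 0 d replicate 3 the calls at 9 d vs. 0 d again numbered 16, now 11 higher and 5 lower. In that fit 183 of all 1082 names were called. MiR-379, miR-376c-3p (log2 -1.64) and miR-412 (log2 -1.03) were gained, and the median log2 difference of members went from 0.30 to 0.16. It was 0.18 with DESeq2 and 0.12 with names placed on a hairpin only, while the median of all names was 0 in each of these settings. DESeq2's scaling lowered the median of the 51 abundant members by 0.13, 0.14 and 0.12 on the 3 later days, so the upward shift of the typical member depends in part on the scaling. The TMM factors were 1.13, 1.17 and 0.907 at 0 d and 0.871, 0.858 and 0.884 at 9 d. A factor above 1 lowers a library's CPM against its plain share of counts, and a factor below 1 raises it. Differences at 9 d vs. 0 d therefore lie higher on this scale than in the shares of counts given above.

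**Figure D2:**
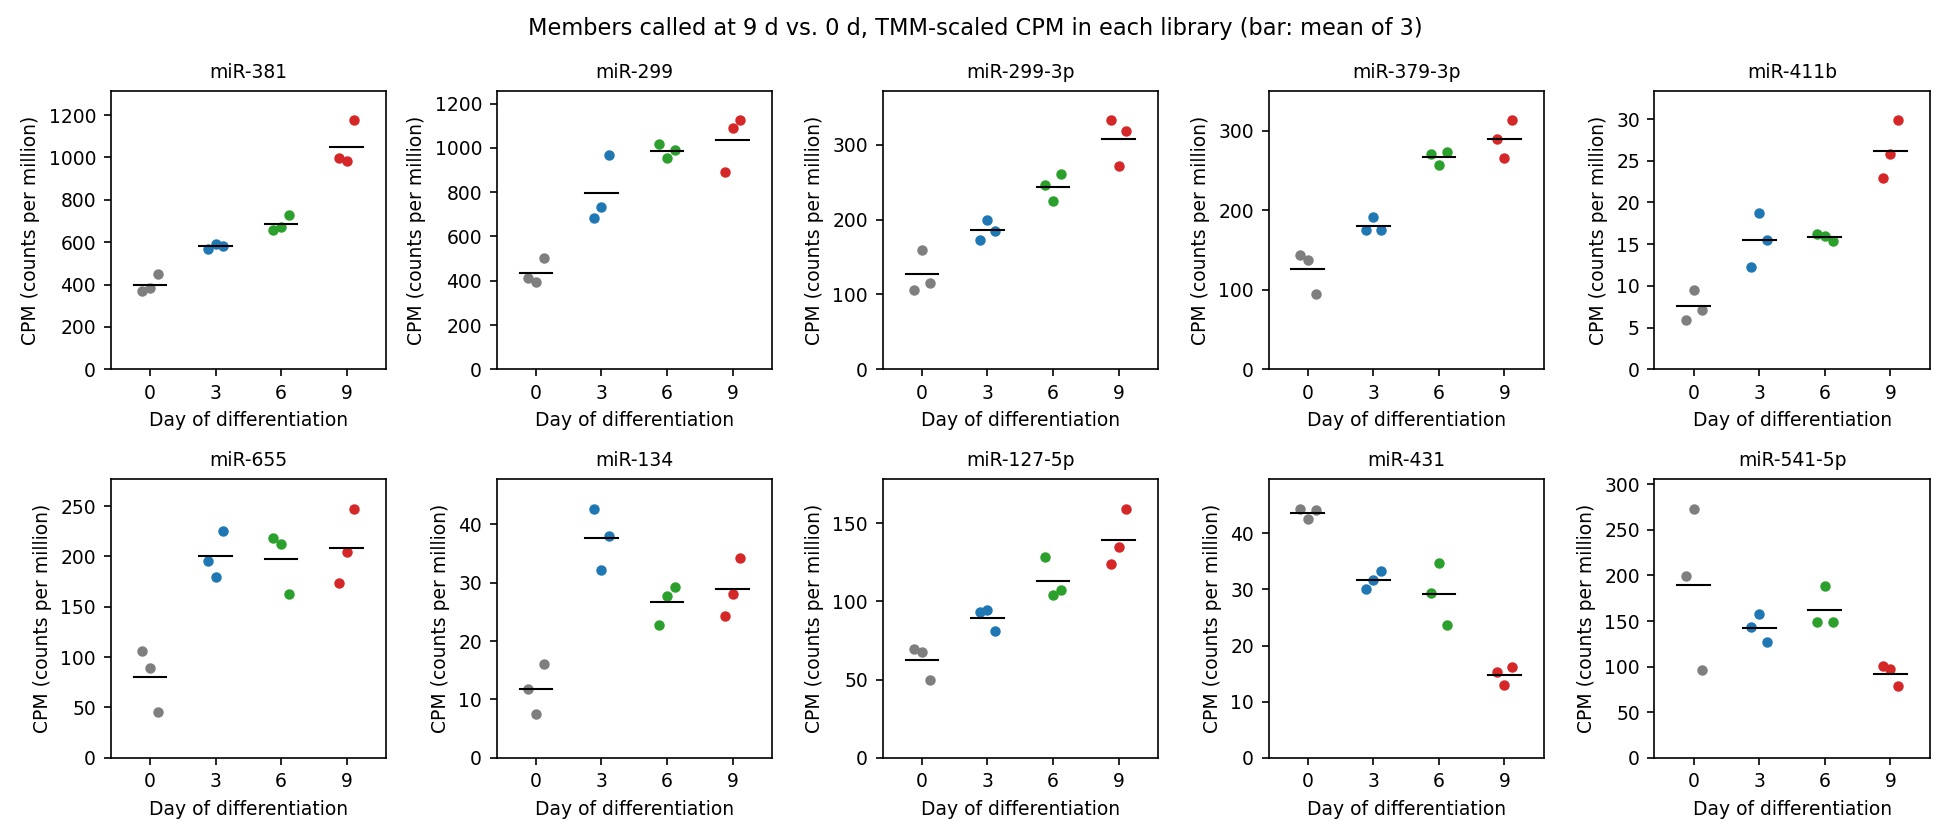
Points give TMM-scaled CPM (linear axes from 0) of 10 members in each library by day, and bars the mean of 3. MiR-381 climbs from 369 to 449 at 0 d to 983 to 1175 at 9 d, and miR-431 drops from 42.4 to 44.3 to 12.9 to 16.2.

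At 9 d vs. 3 d, which leaves the 0 d libraries out of the difference, only miR-431 and miR-412 were called, and both were lower. They made up 2.3% of the 87 members, against 6.42% of all names (2.75% higher and 3.67% lower), and the median log2 difference of members was -0.01 against -0.03. Among names with at least 1000 counts 2 of 51 members (3.92%) were called, against 49 of 332 others (14.8%). MiR-431 fell from 30.1, 31.7 and 33.3 to 15.4, 12.9 and 16.2 (log2 -1.09, SE 0.238, all 3 libraries lower, adjusted p = 0.00967 in edgeR's quasi-likelihood test). MiR-412, the 3p arm, went from 37.7, 30.5 and 40.9 to 16.8, 14.5 and 19.4 (log2 -1.10, SE 0.316, adjusted p = 0.0425 in edgeR's test). Neither day overlapped, yet the call of miR-431 was lost without 3 d replicate 3, and that of miR-412 without any 1 of the 3 d, 6 d or 9 d libraries. Among members with at least 100 counts in the 6 libraries compared, miR-381 had the largest rise, from 567, 593 and 580 to 995, 983 and 1175 (log2 0.86, SE 0.158), below the fold limit. MiR-376c-3p showed the largest fall among them, from 13.6, 14.2 and 6.76 to 4.06, 4.51 and 4.38 (log2 -1.41, SE 0.566, adjusted p = 0.152 in edgeR's test). Without 0 d replicate 3 a call of the rare miR-433-3p variant was added, which made 3, beside 101 of all 1082 names. Leaving out 3 d replicate 3 gave 0 calls of members, beside 46 of all 1079 names. DESeq2 on all libraries called 4 members and 95 of all 1091 names. In edgeR's test on all libraries 22 of the 87 members had an unadjusted p under 0.05, as did 259 of the 1091 names.

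Over the 4 days, 35 of the 51 abundant members had their lowest mean at 0 d, and 19 their highest at 9 d. Of the 332 other names with at least 1000 counts, 135 were lowest at 0 d and 106 highest at 9 d. The members therefore lay low at 0 d more often than the other names, as a description and without a test, and peaked on different days: 13 members at 3 d, 13 at 6 d and 6 at 0 d. These numbers were 30 of 51 members and 132 of 332 other names lowest at 0 d without 0 d replicate 3.

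The study places miR-433 with SESN3 in a network of competing RNAs, and reports all genes of that network as differentially expressed. It also measured miR-433 by qRT-PCR, and describes its pattern as opposite to that of SESN3. MiR-376a appears in the study as the subject of earlier work. Neither miR-433 nor the miR-376 family had a call with all libraries, apart from the rare miR-433-3p variant. The only miR-376a in the table is a 5p arm under a goat name, and whether it is the arm that the study means is not stated. It was called higher at 3 d and at 6 d vs. 0 d without 0 d replicate 1, the only 0 d library in which it was above 0 (13 counts), and no fold is given for it there. MiR-376c-3p was called lower at 9 d vs. 0 d without 0 d replicate 3 (log2 -1.64), and both were called lower at 9 d vs. 3 d when only the 6 libraries compared were fitted. MiR-433, from the group antisense to RTL1, stood at 2388, 2695 and 2277 CPM at 0 d, at 2159, 2091 and 2209 at 3 d, at 1757, 1725 and 2042 at 6 d and at 2034, 1583 and 1397 at 9 d. The 0 d libraries lay above all others, and the log2 difference at 9 d was -0.55 (SE 0.170, adjusted p = 0.0302 in edgeR's test), short of the fold limit. The miR-376 family was rare. MiR-376c-3p had 7 to 65 counts in each library, miR-376e 0 to 53, miR-376a 0 to 56 and miR-376c 0 to 22, while miR-376d and miR-376b were above 0 in 2 libraries each. At such counts a change of the size called elsewhere could pass unseen.

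Along the locus, the rises at 9 d vs. 0 d were crowded at the start of the DIO3-side cluster. The first 6 hairpins (mir-379, mir-411a, mir-299, mir-299-2, mir-380 and mir-411b) lie within 3.2 kb. They held 7 of the 12 DIO3-side members called higher at 9 d vs. 0 d, a stretch that was chosen after the values were seen and is given without a test. Of its 11 members tested, 10 lay above 0, and the median log2 difference was 1.2. The other 38 hairpins of that side had 5 calls of a rise and 1 of a fall among 59 members tested, with a median of 0.14. The stretch held 6 of 10 such calls without 0 d replicate 3, with medians of 1.03 there and 0 over the other hairpins of that side. The MEG3 side had a median of 0.03 over 17 members, and of 0.12 without 0 d replicate 3. MiR-381, miR-655 and both arms of miR-134 lay further along, so the rise was not confined to the start. Members of 1 stretch are not independent values, since mir-379, mir-411a and mir-411b give near-identical 3p arms. The members called higher at 9 d had the same median GC content as all members tested (45.5%). In single libraries, the deviation of the 51 abundant members from the other libraries of the day varied with GC content. Its r with GC content was -0.23, -0.18 and 0.24 in the 0 d libraries and 0.64, -0.32 and -0.46 in those of 9 d. The part of GC content in the differences between days was not tested.

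**Figure D3:**
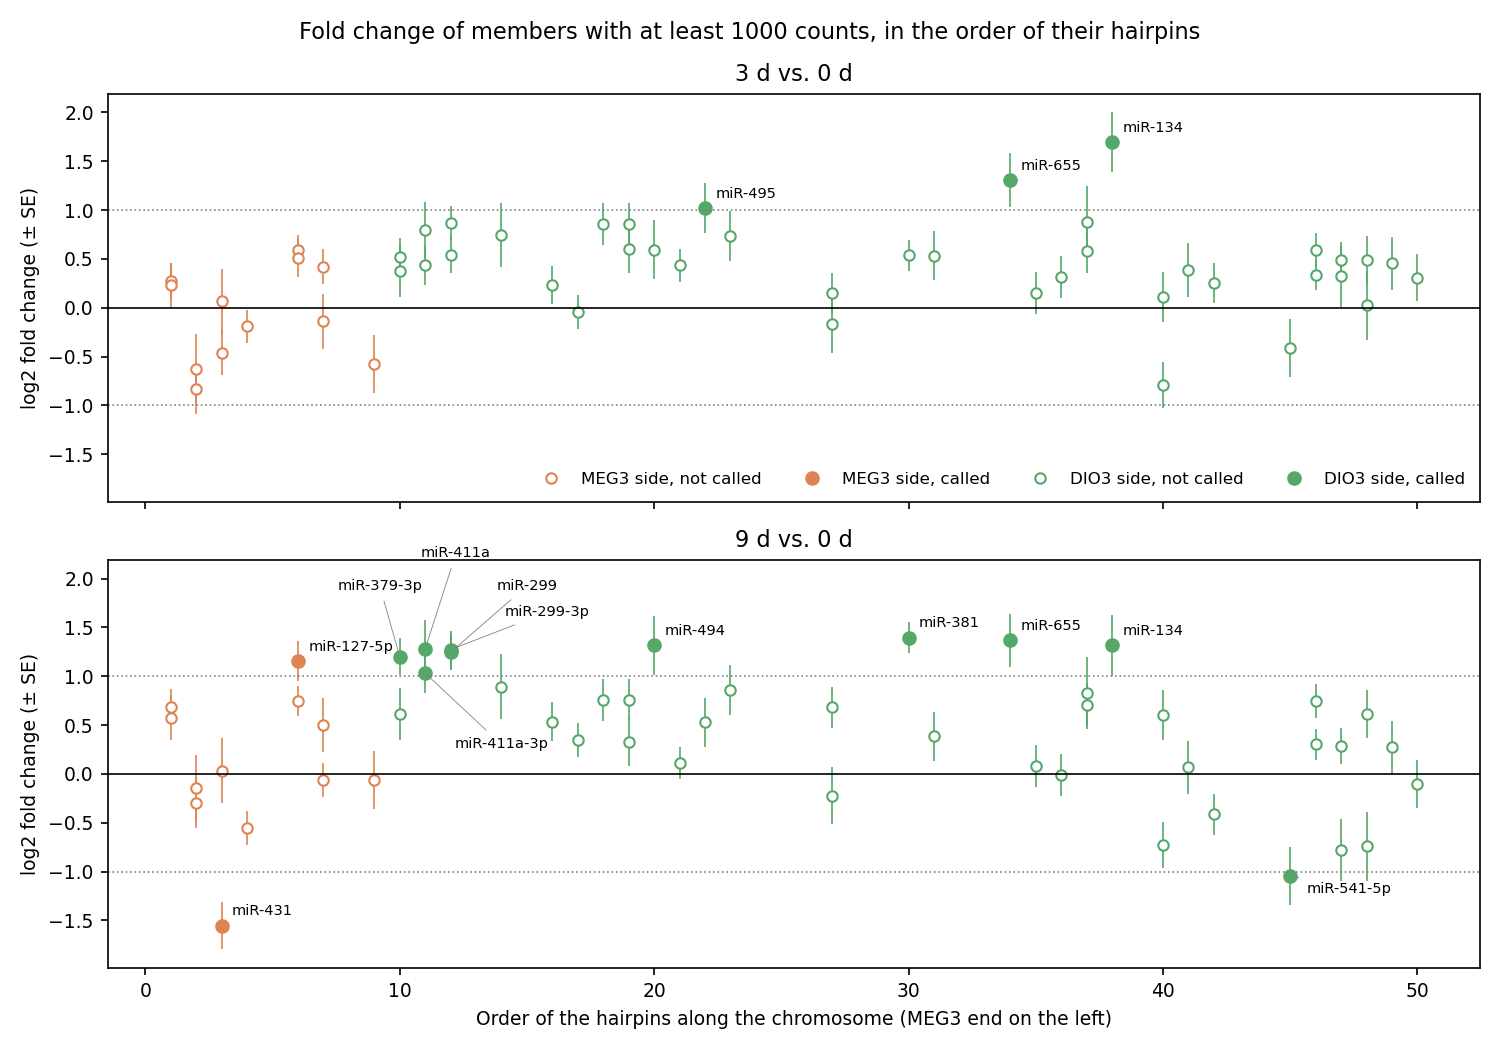
Log2 fold changes (points) with their SE (lines) of the members with at least 1000 counts, in the order of their hairpins along the chromosome, for 3 d and for 9 d vs. 0 d. Filled points passed the call, dotted lines mark a log2 fold change of 1 in each direction, and at 9 d the stretch from miR-379-3p (1.2) to miR-299 (1.25) lies above most others.

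Both arms were measured with at least 100 counts for 26 hairpins, of which 14 had more counts on the 3p and 12 on the 5p arm. For 10 of them the 3p share did not overlap between 0 d and 9 d, with 6 higher and 4 lower at 9 d. That was near the background, since 33.1% of all 154 such hairpins of the table did not overlap either. Again 10 did not overlap without 0 d replicate 3, against 46.8% of all hairpins. Since both arms are cut from the same hairpin, the share shows how the arms moved against each other. In miR-431 the 3p share was 80.5%, 85.9% and 65.9% at 0 d and 94.1%, 92.7% and 89.0% at 9 d, as its 5p arm fell. In miR-134 it was 0, 22.2% and 15.6% against 33.9%, 29.3% and 28.6%, on the few 3p counts given above. In miR-654 it was 64.8%, 68.8% and 58.2% against 78.7%, 73.0% and 77.4%. The share was also higher in miR-432, miR-487b and miR-543, and lower in miR-433. In miR-369 it was 54.6%, 60.3% and 55.2% at 0 d and 30.9%, 37.7% and 32.6% at 9 d, so the more abundant arm changed from 3p to 5p in every library. In miR-412 it was 30.1%, 19.0% and 15.6% at 0 d and 13.2%, 10.6% and 11.99% at 9 d. In miR-485 it was 72.2%, 69.4% and 89.7% against 55.7%, 62.7% and 61.5%. For miR-379 the 0 d mean of 35.9% hid libraries of 43.8%, 43.2% and 20.6%, the last of them 0 d replicate 3, and the 9 d libraries at 46.7%, 45.9% and 39.7% overlapped with them. No test was run on these shares.

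**Figure D4:**
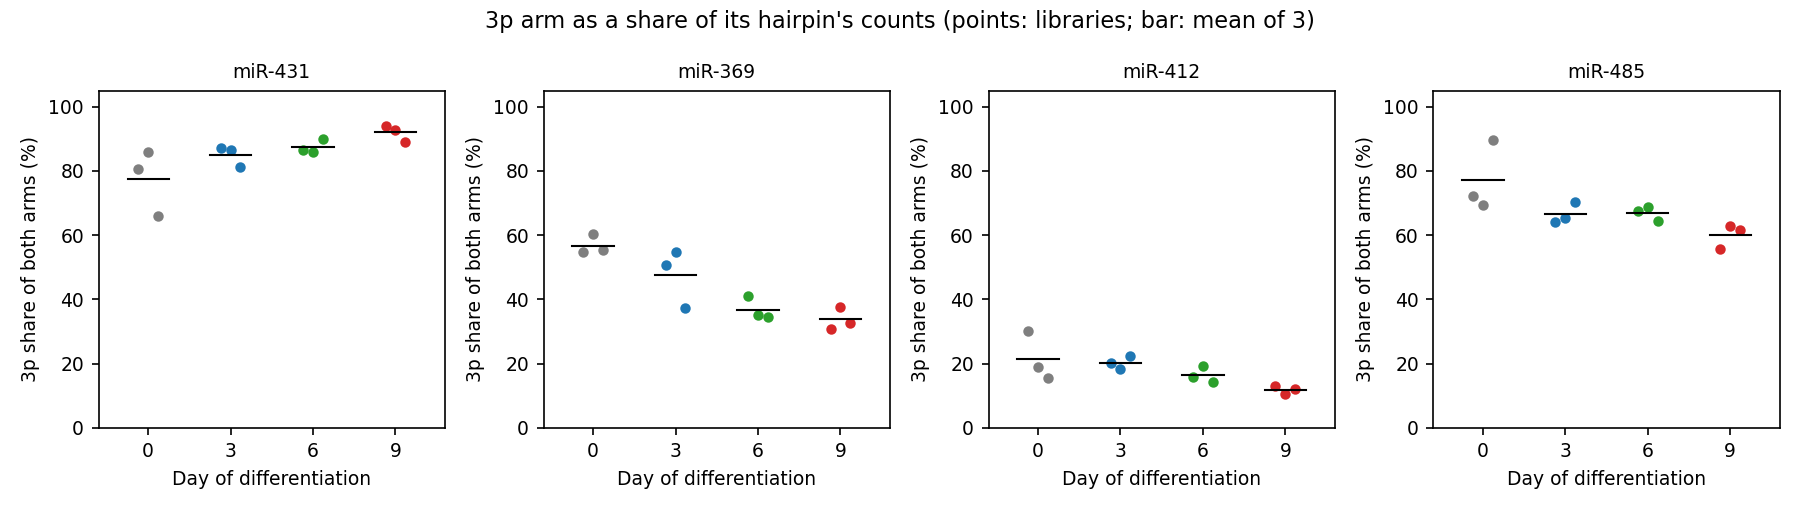
Points give the 3p arm's share of its hairpin's counts (%) in each library by day for miR-431, miR-369, miR-412 and miR-485, and bars the mean of 3. The share in miR-369 drops from 54.6% to 60.3% at 0 d to 30.9% to 37.7% at 9 d.

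Among the mRNAs, 45 genes were listed: those of the locus, of its imprint and activation, of miRNA processing and loading, and SESN3 and KLF15. Of these, 38 had a value and 31 reached a mean FPKM of 0.1 and were tested. MEG8, MIRG, DIO3OS, ZFP57, DNMT1, DGCR8 and AGO3 had none. At 3 d vs. 0 d 7 of the 31 were called (3 higher, 4 lower), against 23.3% of all 15401 mRNAs (8.06% higher, 15.2% lower). At 6 d vs. 0 d 2 were called and both were lower, against 11.4% (3.39% higher, 7.97% lower). At 9 d vs. 0 d 4 were called and all were lower, against 10.9% (3.41% higher, 7.47% lower). At 9 d vs. 3 d 8 were called, against 20.5% (10.2% higher, 10.3% lower). SLC25A29 and AFF3 were the 2 higher, and TRIM28, JARID2, PRKRA, TNRC6C, SESN3 and KLF15 the 6 lower. The calls numbered 9, 2, 5 and 9 in the same order without 0 d replicate 3, with MEF2D (log2 -2.42) and MEG9 added at 3 d, RTL1 at 9 d and MEF2D (log2 1.68) at 9 d vs. 3 d. The median log2 difference of all 15401 mRNAs was -0.06, -0.15, -0.19 and -0.13 in that order. After the FPKM were rescaled between libraries it was 0.02, -0.01, -0.03 and -0.05.

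None of the 6 locus genes tested was called higher against 0 d. RTL1 stood at 11.9, 13.1 and 10.7 FPKM at 0 d, 9.31, 6.61 and 6.37 at 3 d, 8.7, 9.46 and 6.75 at 6 d, then 6.62, 5.34 and 5.81 at 9 d. Every later library lay below every 0 d library, with a log2 difference of -0.996 at 9 d (SE 0.171, adjusted p = 0.00131 in limma), at the edge of the fold limit. The median of all mRNAs in this comparison was itself below 0, at -0.19. RTL1 was called without 0 d replicate 3 (-1.07) and without 9 d replicate 1 (-1.08). The labels describe poly(A) selection for these libraries and the study's methods the removal of rRNA, and the levels of noncoding RNAs such as MEG3 and MEG9 may depend on which was used. MEG3 was at 66.2, 85.0 and 56.9 FPKM at 0 d and at 57.4, 48.9 and 50.8 at 9 d (log2 -0.39, SE 0.243, adjusted p = 0.249 in limma), with days that overlapped. MEG9 was at 1.55, 1.72 and 1.01 at 0 d and at 0.95, 0.69 and 0.69 at 9 d (log2 -0.78, SE 0.305, adjusted p = 0.0713 in limma), and at 3 d its difference of -0.94 became a call without 0 d replicate 3 (-1.16) or 3 d replicate 1 (-1.15) or 3 (-1.1). DLK1, the preadipocyte factor that gives the locus its name, was at 0.13 FPKM or less in every library. DIO3, which breaks down thyroid hormone, was at 0.02 or less at 0 d and at 0.27, 0.24 and 0.22 at 9 d. Its mean was too low for the test, and with no filter it was called higher at 9 d vs. 0 d (log2 1.69, adjusted p = 5.03e-05 in limma) and vs. 3 d (log2 1.09). BEGAIN, also too low, was at 0.03, 0.04 and 0.03 at 0 d and at 0.13, 0.15 and 0.11 at 9 d, and was not called with no filter. WDR25 varied from 21.6 to 83.7 within 0 d alone. YY1 varied from 3.17 to 23.5 over all libraries, and was called only without 9 d replicate 2 (log2 -2.66 at 9 d vs. 0 d).

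SLC25A29, a mitochondrial carrier of basic amino acids next to the locus, had the largest log2 change among the 6 locus genes tested. It stood at 31.7, 29.2 and 36.1 FPKM at 0 d, 5.33, 4.66 and 5.68 at 3 d, 19.1, 19.2 and 17.6 at 6 d, then 11.8, 13.95 and 14.5 at 9 d. It fell at 3 d (log2 -2.61, SE 0.111, adjusted p = 2.71e-08 in limma) and at 9 d vs. 0 d (log2 -1.26, SE 0.111, adjusted p = 1.62e-05 in limma), with all 3 libraries lower each time.

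Of the genes that keep or activate the imprinted domain, MEF2A fell at 3 d. It was at 2064, 1915 and 1860 FPKM at 0 d, 819, 785 and 805 at 3 d, 1197, 1161 and 1168 at 6 d, then 1095, 1097 and 1244 at 9 d (log2 -1.28 at 3 d, SE 0.0585, adjusted p = 4.61e-08 in limma). At 3 d it was lowest in all 3 libraries. JARID2, a partner of the Polycomb complex, rose from 0.56, 0.62 and 0.55 to 1.37, 1.37 and 1.26 at 3 d (log2 1.08, SE 0.0901, adjusted p = 3.71e-06 in limma), a call lost with a pseudocount of 1. AFF3 fell from 7.79, 6.1 and 6.48 to 3.83, 3.33 and 2.3 (log2 -1.11, SE 0.215, adjusted p = 0.00155 in limma), and the call was lost without 3 d replicate 3, at -0.90, and with a pseudocount of 1. TRIM28, which holds silencing complexes at imprinted sites, fell at 9 d vs. 3 d from 50.7, 54.3 and 53.3 to 27.4, 25.5 and 24.6 (log2 -1.03, SE 0.0697, adjusted p = 1.01e-06 in limma). That call was lost when the FPKM were rescaled between libraries and without 9 d replicate 3, at -0.99.

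Of the 13 processing and loading genes tested, the core enzymes DROSHA and DICER1 were not called in any comparison, and LIN28A and LIN28B were at 0. PRKRA, a partner of DICER1, was at 7.34, 5.68 and 6.31 FPKM at 0 d, 7.58, 7.02 and 7.99 at 3 d, 2.28, 2.13 and 3.05 at 6 d, then 3.24, 2.91 and 3.03 at 9 d. It fell at 6 d (log2 -1.35, SE 0.139, adjusted p = 4.18e-05 in limma) and at 9 d vs. 0 d (log2 -1.04, SE 0.139, adjusted p = 0.000262 in limma), the latter lost without 0 d replicate 1 at -0.95, and at -0.87 both with a pseudocount of 1 and when the FPKM were rescaled between libraries. TNRC6C, a silencing partner of Argonaute proteins, went from 6.23, 4.93 and 5.14 at 0 d to 2.3, 2.02 and 1.87 at 6 d, then 1.97, 1.31 and 1.53 at 9 d. It fell at 6 d (log2 -1.35, SE 0.150, adjusted p = 6.86e-05 in limma) and at 9 d (log2 -1.71, SE 0.150, adjusted p = 1.60e-05 in limma), below every 0 d library. ADARB1, an RNA-editing enzyme, fell at 3 d from 64.5, 34.4 and 62.5 to 10.9, 25.4 and 10.3 (log2 -1.86, SE 0.415, adjusted p = 0.00353 in limma).

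SESN3, which the study places with miR-433, and KLF15, which earlier work that it cites ties to miR-376a, both rose at 3 d. SESN3, a stress-induced regulator of metabolism, was at 54.4, 52.9 and 47.4 FPKM at 0 d, 391, 359 and 352 at 3 d, 44.8, 41.8 and 45.1 at 6 d, then 63.0, 64.3 and 65.3 at 9 d (log2 2.83 at 3 d, SE 0.0664, adjusted p = 4.43e-10 in limma). KLF15, a transcription factor of adipocytes, was at 13.9, 14.8 and 16.6 at 0 d, 29.4, 36.1 and 34.8 at 3 d, 10.3, 9.92 and 11.7 at 6 d, then 3.41, 4.53 and 4.79 at 9 d. It rose at 3 d (log2 1.14, SE 0.138, adjusted p = 5.99e-05 in limma) and fell at 9 d vs. 0 d (log2 -1.82, SE 0.138, adjusted p = 5.82e-06 in limma). Whether any member acts on either mRNA was not tested.

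**Figure D5:**
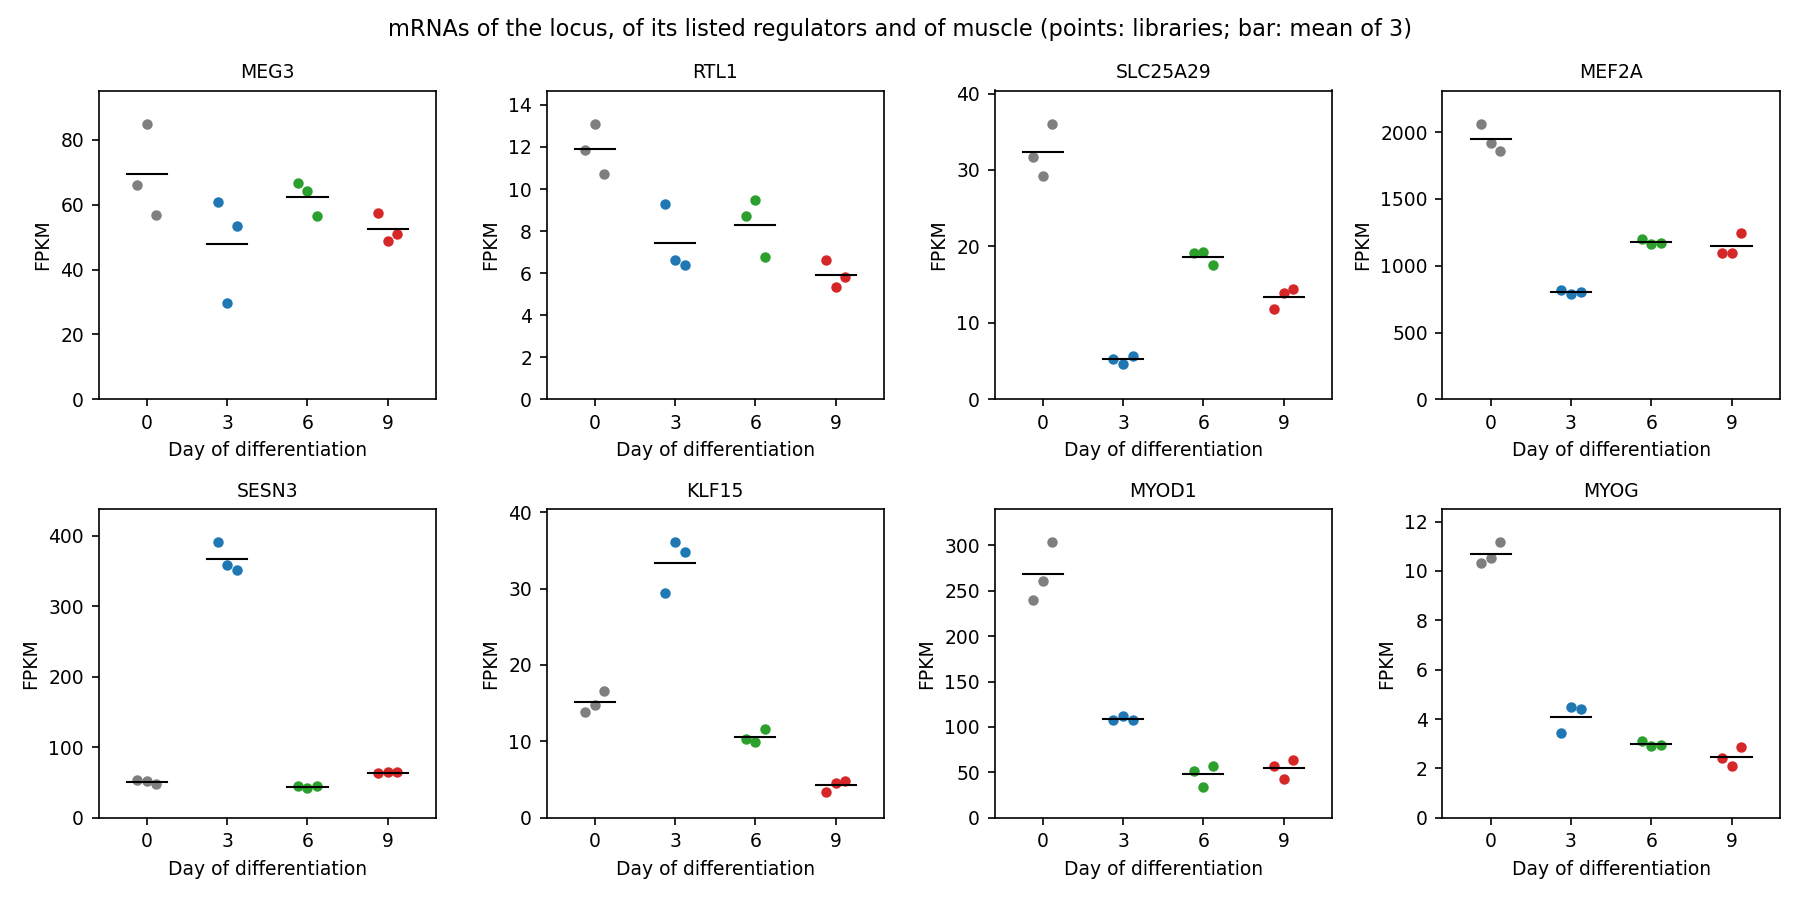
Points give FPKM (linear axes from 0) of 8 mRNAs in each library by day, and bars the mean of 3. RTL1 drops from 10.7 to 13.1 at 0 d to 5.34 to 6.62 at 9 d, and SESN3 peaks at 352 to 391 at 3 d.

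Markers of cell types moved over the same days. The 6 adipocyte markers with a value summed to 10.4, 10.3 and 11.1 FPKM at 0 d, 112, 100 and 107 at 3 d, 40.3, 40.4 and 39.3 at 6 d, then 47.4, 39.3 and 47.2 at 9 d. FABP4 had the highest mean over all libraries and led the sum at 3 d, when 4 were called higher and LEP fell from 2.17, 2.39 and 2.47 to 0, 0.21 and 0. At 9 d vs. 0 d 4 were called higher. LEP then led at 25.3, 16.6 and 19.6, against 7.59, 8.84 and 10.8 for FABP4, while LPL and CEBPA were not called. PPARG and PLIN1 had no value. The 7 muscle markers with a value summed to 694, 732 and 810 at 0 d, 269, 295 and 293 at 3 d, 380, 368 and 411 at 6 d, then 299, 270 and 297 at 9 d. DES was the most abundant, MYOD1 fell from 240, 260 and 303 to 56.6, 43.2 and 63.8 at 9 d, 6 of the 7 were called lower at 9 d vs. 0 d, and PAX7 had no value. The muscle miRNAs miR-206, miR-133b and miR-1 together with miR-133a and rarer forms summed to 32356.2, 25571.9 and 46460.5 CPM at 0 d, 29700.7, 29607.3 and 32543.4 at 3 d, 17815.2, 17657.6 and 19188.1 at 6 d, then 15624.3, 17080.3 and 19894.2 at 9 d. The 3 d sums lay within the range of 0 d and none of these miRNAs was called at 3 d. At 9 d vs. 0 d miR-206, miR-133b and miR-1 were called lower, and miR-133a was not (log2 -0.20). MiR-206 went from 16480, 11370 and 32380, the last in 0 d replicate 3, to 7406, 8322 and 11160 CPM at 9 d. The 7 fibroblast markers, led by COL3A1, summed to 119300, 116100 and 123400 FPKM at 0 d, 166700, 172600 and 174500 at 3 d, 134200, 130000 and 129700 at 6 d, then 222300, 211500 and 224800 at 9 d. At 3 d vs. 0 d 3 of them were called higher and 3 lower, and at 9 d vs. 0 d DCN was called higher and CD34 lower. VWF led the endothelial markers at a sum of 2.64 FPKM or less. Blood and immune markers summed to 1.36 FPKM or less, with PTPRC and HBB at 0 in all libraries. Of the 2 tested, CSF1R was called higher at 3 d vs. 0 d (0.29, 0.5 and 0.2 against 0.84, 0.8 and 0.97) and lower at 9 d vs. 3 d, while CD68 was not called. The part of muscle, fat and other cells in the members' differences was not tested.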

How the data were processed

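Values were taken from the deposited tables of small RNA and mRNA libraries, and reads were not mapped again. The authors gave miRNAs as estimated counts (expected counts), with shared reads split evenly, and as a normalized signal, the estimated count times 1 factor per library. The deposited mRNA values are FPKM. By the labels the authors used Bowtie 0.12.2, HISAT2 2.0 and StringTie 1.3.0. The labels give the build as mm8, while the deposited positions and the study's methods are bovine.

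Estimated counts were summed per name, rounded and tested with edgeR 4.0.16 (TMM, quasi-likelihood, at least 10 summed counts) on the whole table. The mRNAs with a mean FPKM of at least 0.1 were tested with limma 3.58.1 with a trend on log2(FPKM + 0.1). Each fit held 12 libraries with 1 mean for each day, and p-values were adjusted by Benjamini–Hochberg within a comparison. SE of log2 differences in edgeR were derived from the F statistic. Libraries held 1851744 to 5636294 counts, and the biological coefficient of variation was 0.464. Further tools were R 4.3.3, DESeq2 1.42.0, Python 3.11.15, NumPy 2.4.6, pandas 2.3.3 and Matplotlib 3.10.9.

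Named members were the 10 most abundant, every member called, the largest rise and fall of each comparison among members with at least 100 counts in the 6 libraries compared, miR-433 and the miR-376 family. Named mRNAs were every measured locus gene, SESN3, KLF15 and every other listed gene called. Others were named after their values were seen (miR-379, members called only in an alternative, the arms of called hairpins, and hairpins in the account of arm shares). The members and lists were chosen with earlier results of these data known. The alternatives were DESeq2, limma on the normalized signal, other filters and pseudocounts, rescaled FPKM, a fit of 6 libraries, a replicate block and leaving out each library. A run with the variant rows of each miRNA and arm summed is not counted among the alternatives for single calls. It gave medians of members of 0.32, 0.46 and 0.23 at 3, 6 and 9 d vs. 0 d. A table of names placed on a hairpin was added after seeing the data. The lncRNA and circRNA tables were not used.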

Additional observations from a re-analysis of the deposited data

How the results depend on the processing

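No called difference reversed its direction. Called members numbered 5, 7 and 16 at 3, 6 and 9 d against 0 d, and 2 at 9 d vs. 3 d, the order kept below. Leaving out 1 library in turn gave 2 to 6, 4 to 13, 13 to 19 and 0 to 3. A fit of only the 6 libraries compared gave 1 at 3 d, 2 at 6 d and 4 at 9 d vs. 3 d. Over all names it called 37 of 1010, 66 of 1075 and 108 of 1022 there. At least 120 summed counts gave 3 at 3 d, beside 68 of all 665 names. DESeq2 gave 4 at 9 d vs. 3 d, beside 95 of all 1091 names. Names placed on a hairpin only, an alternative chosen after seeing the data, gave 3 at 6 d, beside 83 of all 645 names. That alternative lowered the median of the 51 abundant members by 0.16, 0.22 and 0.19 on the 3 later days. Limma on the normalized signal lowered that median by 0.11, 0.13 and 0.12, and the filter of 120 counts by 0.1, 0.16 and 0.09. An adjusted p under 0.05 with no minimum fold gave 12, 17, 26 and 5 members, by the rule's own construction, beside 98, 170, 264 and 104 of all 1091 names. The cause of the other changes was not tested. Calls of listed mRNAs were 7, 2, 4 and 8, and stayed within 7 to 9, 2 to 3, 3 to 5 and 7 to 9 when 1 library was left out.

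Of the calls of members, 1 of 5, 0 of 7, 10 of 16 and 0 of 2 were kept in every alternative. The rare variant of miR-433-3p, counted among the 10, was tested in 17 alternatives rather than 19. Over the calls of single miRNAs and mRNAs, each under each alternative, 832 were kept and 90 lost, while the size of the difference moved, as for mir-134-p3 at 9 d (log2 2.32 to 3.44). The replicate numbers did not pair throughout: only 5 of 12 libraries were most like a library of their own number. With day means removed, r of same-numbered libraries ran from -0.143 to 0.333, and r of other pairs from -0.273 to 0.224. The highest r was that of 0 d replicate 3 with 6 d replicate 3. A replicate block gave 4, 9, 16 and 2 calls of members and left those of mRNAs at 7, 2, 4 and 8. Depth limits the members under 100 counts, and a library left out of a day leaves 2 to set that day's mean.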
